A study of Bos taurus with 3 samples.

Results

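Keratins are the structural proteins of the intermediate filaments of epithelial cells. A filament is built from pairs of 1 type II (basic) and 1 type I (acidic) keratin, so the genes of the family are best read as partners. In stratified squamous epithelia such as the epidermis, KRT5 and KRT14 are the classical pair of the basal layer, and other pairs take over as cells move up, divide fast or are wounded. The rumen is lined by such an epithelium, and its keratin composition was described here with 10 genes: the type II genes KRT4, KRT5, KRT6A and KRT7 and the type I genes KRT10, KRT13, KRT14, KRT15, KRT17 and KRT19.

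The data were single-cell RNA-seq counts from the ventral sac rumen epithelium of 3 adult lactating Holstein dairy cows, with 1 library per cow and a single condition. No treatment or genotype differed between the cows, and because each cow gave 1 library, cow and library cannot be told apart. The deposited table held 20728 cells, with 3369, 7401 and 9958 cells in cows 1, 2 and 3 and median depths of 10342, 12051 and 9747 UMIs (unique molecular identifiers, each standing for 1 captured transcript) per cell. The study had kept these cells from epithelial clusters picked on KRT14, KRT5 and KRT19, so that nearly all cells carry keratins is not a finding. Markers of other cell types were scarce: over all cells, 4 fibroblast genes summed to 12 UMIs, 4 smooth muscle genes to 222 and 2 melanocyte genes to 96, 4 endothelial genes to 580 and 5 immune genes to 2001. Of 8 late differentiation genes, 4 were named in the table, with 116 UMIs in all (their spread over classes is given with the BPIFA2C results), whereas the 6 basal genes summed to 237843 UMIs. Between pairs of libraries, 35 cell barcodes were shared. The files held no class of cells known to lack keratins, so the level that free RNA adds to each cell could not be measured.

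Of the 19533 genes in the table, 41 were named as keratins, and 9 of the 10 members were among them. KRT13 had no row of that name and was not analysed here. The 9 named members held 4049221 UMIs, which was 1.70% of all UMIs and 98.6% of those of all named keratins. This 98.6% is over all cells and need not hold in each class of cell. Transcripts were counted at their 3' end, 1 UMI each, so that levels of different genes are given as UMIs and not per length.

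KRT15 (ENSBTAG00000004903), a type I keratin of basal cells, and KRT5 (ENSBTAG00000038384) were the most abundant members, with 31.5% and 30.7% of the keratin UMIs. KRT14 (ENSBTAG00000007583) followed with 21.0% and KRT17 (ENSBTAG00000006806), a type I keratin known from skin appendages and activated keratinocytes, with 12.9%. KRT6A (ENSBTAG00000039425), a type II keratin induced in wounded and fast-growing epidermis, held 2.05%. KRT19 (ENSBTAG00000004905), the smallest type I keratin, held 1.66%. The remaining named members were rare: KRT10 (ENSBTAG00000020824), the type I keratin of suprabasal epidermis, held 0.141% and KRT7 (ENSBTAG00000016165), a type II keratin of simple epithelia, 0.0582%. KRT4 (ENSBTAG00000012034), the type II keratin of the upper layers of oesophagus and mouth, had 8 UMIs in 7 cells. KRT5 and KRT15 were found in 99.9% and 99.8% of cells and KRT6A in 64.1%.

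The composition differed between cows before any class was considered. Over all cells, keratin UMIs made up 124.5, 147.6 and 207.7 of every 10000 UMIs in cows 1, 2 and 3. KRT15 took 38.5% and 38.3% of the keratin UMIs in cows 1 and 2 and 25.4% in cow 3, while KRT14 took 15.5%, 19.0% and 23.5% and KRT5 29.7%, 26.9% and 33.4%. Cow 3 therefore stood apart with a lower share of KRT15 and higher shares of KRT5 and KRT14. As a level, its KRT15 did not stand apart, with 47.9, 56.6 and 52.9 UMIs per 10000 in cows 1, 2 and 3. The KRT17 share lay between 12.7% and 12.9% in every cow. Each comparison was for this reason made within cows.

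Cells were set apart by 4 genes that are not keratins. DLK2 encodes a membrane protein of the Notch ligand family, GJA1 the gap junction protein connexin 43, BPIFA2C a secreted protein of the BPI fold family, and TOP2A the topoisomerase of dividing cells. BPIFA2C cells had at least 10 BPIFA2C UMIs per 10000 and at least 3 such UMIs, and the other cells were then assigned to TOP2A, GJA1 or DLK2, in this order, by at least 2 UMIs of that gene. There were 265 BPIFA2C cells (137, 55 and 73 in cows 1, 2 and 3), 1643 TOP2A cells (216, 190 and 1237), 984 GJA1 cells (320, 351 and 313) and 3398 DLK2 cells (627, 2010 and 761), and 14438 cells met none of the 4 conditions. These classes are named after their gene and are not cell types. They overlapped in part, since 217 of the 265 BPIFA2C cells also reached the GJA1 threshold and 101 of the TOP2A cells did. The cycling list (6 genes) reached 14.3 to 23.6 UMIs per 10000 in TOP2A cells, 1.21 to 2.47 in BPIFA2C cells and 0.198 to 1.28 in the others. A threshold in UMIs favours deep cells: median depths were 8914 to 10722 UMIs in DLK2 cells, 13864 to 18520 in GJA1 cells, 12809 to 19998 in BPIFA2C cells and 14797 to 18955.5 in TOP2A cells.

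DLK2, GJA1 and BPIFA2C cells differed in composition, with a lower summed share of KRT5, KRT14 and KRT15 and more of KRT17 and KRT6A in this order; the KRT14 share alone was 17.4% in GJA1 and 17.5% in BPIFA2C cells on average. As shares of 3 cows they could reach no p below 0.25, and the tests follow on the counts. The 3 genes KRT5, KRT14 and KRT15 together made up 86.5% ± 0.511 (SD, n = 3 cows) of the keratin UMIs in DLK2 cells, 85.3% ± 1.01 in TOP2A cells, 76.3% ± 4.53 in GJA1 cells and 52.9% ± 10.7 in BPIFA2C cells. KRT6A and KRT17 together made up 12.0% ± 0.857 in DLK2 cells, 12.6% ± 0.582 in TOP2A cells, 22.6% ± 4.56 in GJA1 cells and 46.2% ± 11.0 in BPIFA2C cells. Per cow, the KRT6A and KRT17 share was 11.4%, 13.0% and 11.7% in DLK2 cells, 19.6%, 20.4% and 27.9% in GJA1 cells and 35.5%, 45.7% and 57.4% in BPIFA2C cells. The 3 classes did not overlap in this share, and cow 3 was highest in both GJA1 and BPIFA2C cells. Cells with none of the 4 genes at threshold had 13.4% ± 0.942.

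**Figure D1:**
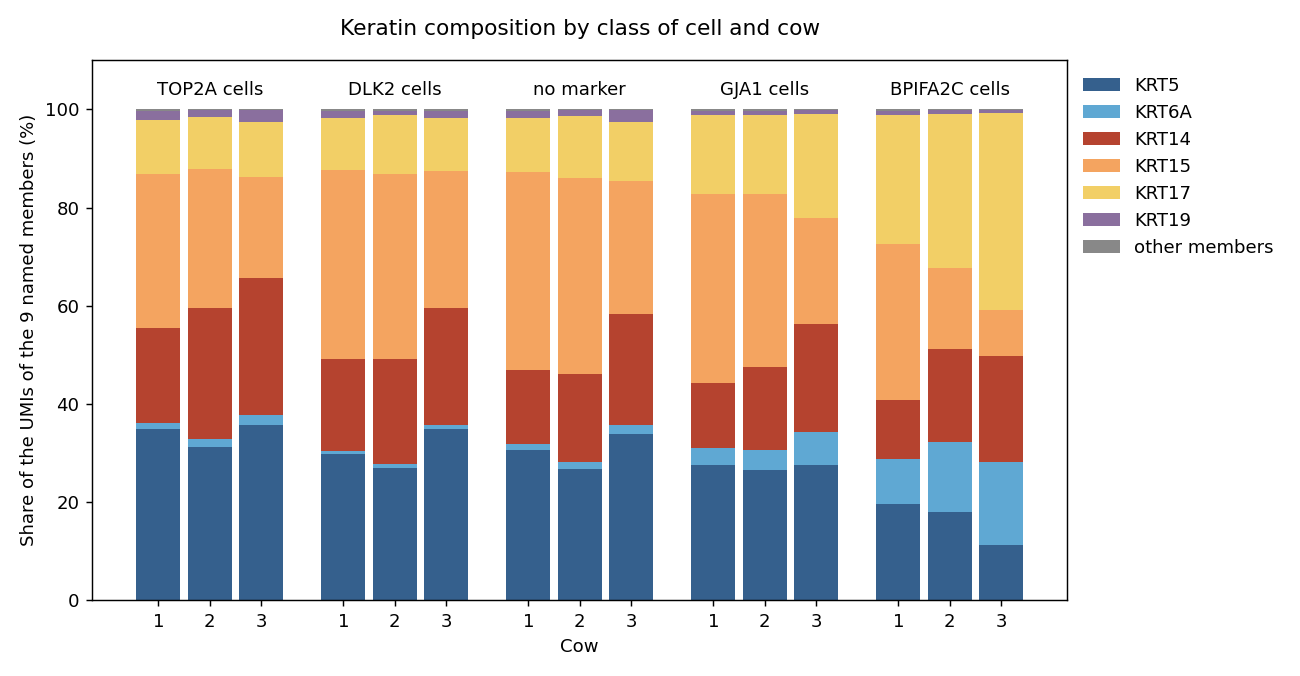
Stacked bars give the share (%) of each member in the UMIs of the 9 named keratin members, for each cow and class of cell; "other members" sums KRT4, KRT7 and KRT10. KRT6A and KRT17 together grow from 11.4% to 13.0% in DLK2 cells to 35.5% to 57.4% in BPIFA2C cells.

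For tests, counts were summed per cow and class, and all 15 sums were fitted in 1 edgeR quasi-likelihood model with the cow as a block. A gene was called with a Benjamini-Hochberg adjusted p under 0.05 over the 10307 genes tested and a log2 fold change beyond 0.25 in either direction. The SE of a log2 value was taken as its size divided by the square root of the F statistic of this test. It rests on the fit over all classes and is not the spread of the per-cow ratios. KRT4 did not pass the filter on low counts, so 8 of the 10 members were tested. In GJA1 against DLK2 cells, 4 members were higher and 1 was lower, 5 of the 8 tested, where 45.5% of all genes were called (22.3% higher and 23.2% lower). In BPIFA2C against DLK2 cells, 4 were higher and 1 was lower, where 37.1% of all genes were called (18.7% higher and 18.4% lower). In TOP2A against DLK2 cells, 2 were higher and 2 lower, where 42.7% of all genes were called (21.6% higher and 21.1% lower). In BPIFA2C against GJA1 cells, 2 were higher and 2 lower, where only 1.93% of all genes were called (1.51% higher and 0.417% lower). In TOP2A against GJA1 cells, 2 were higher and 4 lower, where 36.9% of all genes were called (18.8% higher and 18.1% lower). Against DLK2 cells a called gene was common, so the members' counts there stand beside these shares and are not particular to keratins. The number of all genes called between BPIFA2C and GJA1 cells was 199 and fell to 125 without cow 1 and 124 without cow 2. Between TOP2A and GJA1 cells it was 3807 and fell to 2520 without cow 3.

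**Figure D2:**
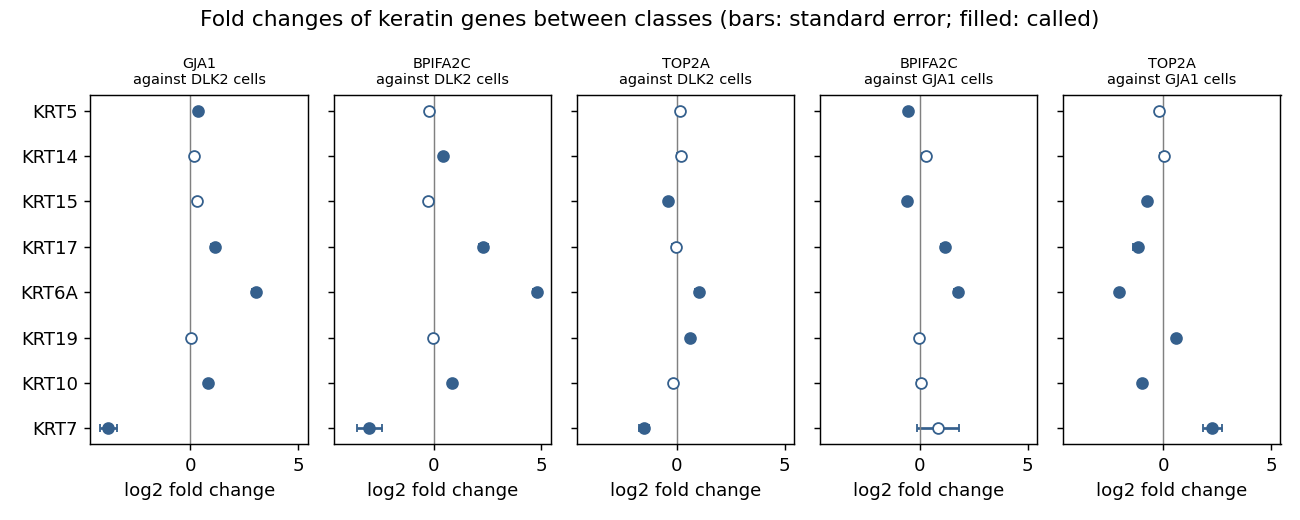
Points give the edgeR log2 fold change of each of 8 members in 5 comparisons of classes (x axis, log2 scale), with the standard error as bars; filled points were called. KRT6A spans 1.01 to 4.79 against DLK2 cells, whereas KRT14 stays between 0.17 and 0.44.

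KRT6A changed most of the abundant members. Its level was 0.766, 1.14 and 1.75 UMIs per 10000 in the DLK2 cells of cows 1, 2 and 3, and 1.52, 2.31 and 4.12 in TOP2A cells. It was 4.90, 7.30 and 17.6 in GJA1 cells and 13.1, 23.9 and 70.9 in BPIFA2C cells. Within every cow the order was DLK2, TOP2A, GJA1, BPIFA2C, and the DLK2 and GJA1 cells did not overlap across cows. Cells with none of the 4 genes at threshold had 1.48, 1.92 and 3.73, below but near TOP2A cells and above DLK2 cells in every cow. The rise over DLK2 cells was 3.04 ± 0.18 on the log2 scale (SE; adjusted p = 1.8e-10, edgeR) in GJA1 cells, 4.79 ± 0.19 in BPIFA2C cells (adjusted p = 2.1e-12) and 1.01 ± 0.17 in TOP2A cells (adjusted p = 9.1e-05). BPIFA2C cells exceeded GJA1 cells by 1.76 ± 0.17 (adjusted p = 3.2e-06), and TOP2A cells lay below GJA1 cells at -2.03 ± 0.17 (adjusted p = 2.4e-08). As a share of keratin UMIs, KRT6A went from 0.798% ± 0.114 in DLK2 cells to 13.5% ± 3.93 in BPIFA2C cells.

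KRT6A was also detected in more cells. It had a UMI in 45.7% ± 12.7 of DLK2 cells, 95.4% ± 5.15 of GJA1 cells and 97.0% ± 3.80 of BPIFA2C cells. Thinned to 3000 UMIs per cell, which left out 31, 19 and 33 shallower cells, the shares were 21.1% ± 8.10, 74.7% ± 17.2 and 84.4% ± 18.1. Among cells with at least 20 keratin UMIs, KRT6A outnumbered the basal type II keratin KRT5 in 41 of 137, 22 of 55 and 32 of 73 BPIFA2C cells of cows 1, 2 and 3 and in 7 of 314, 4 of 351 and 8 of 313 GJA1 cells. Over all cows it did so in 1 of 1641 TOP2A cells and 0 of 3391 DLK2 cells.

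KRT17 was likewise higher in GJA1 and highest in BPIFA2C cells in every cow, from a high level, but TOP2A cells did not exceed DLK2 cells in cow 2. It stood at 12.2, 16.7 and 21.1 UMIs per 10000 in the DLK2 cells of the 3 cows and at 13.2, 15.1 and 22.4 in TOP2A cells. It reached 22.4, 28.4 and 54.2 in GJA1 cells and 36.8, 52.7 and 167.2 in BPIFA2C cells. DLK2 and TOP2A cells overlapped almost fully, and cow 3 was the highest cow in each class. The log2 fold change over DLK2 cells was 1.14 ± 0.21 in GJA1 cells (adjusted p = 1.6e-04, edgeR) and 2.30 ± 0.21 in BPIFA2C cells (adjusted p = 8.8e-08). It was -0.04 ± 0.20 in TOP2A cells and was not called there (adjusted p = 0.90). BPIFA2C cells were above GJA1 cells by 1.16 ± 0.21 (adjusted p = 0.0027), and TOP2A cells below them at -1.18 ± 0.21 (adjusted p = 1.6e-04). KRT17 was the leading keratin of 35.8%, 41.8% and 56.2% of BPIFA2C cells in cows 1, 2 and 3, against 2.74%, 6.52% and 0.788% of DLK2 cells.

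The number of KRT6A UMIs for each KRT17 UMI differed between the classes as well. It was 0.071 ± 0.011 in DLK2 cells, 0.151 ± 0.034 in TOP2A cells, 0.267 ± 0.054 in GJA1 cells and 0.411 ± 0.049 in BPIFA2C cells. Per cow it was 0.0630 to 0.0832 in DLK2 cells and 0.357 to 0.452 in BPIFA2C cells, with no overlap.

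**Figure D3:**
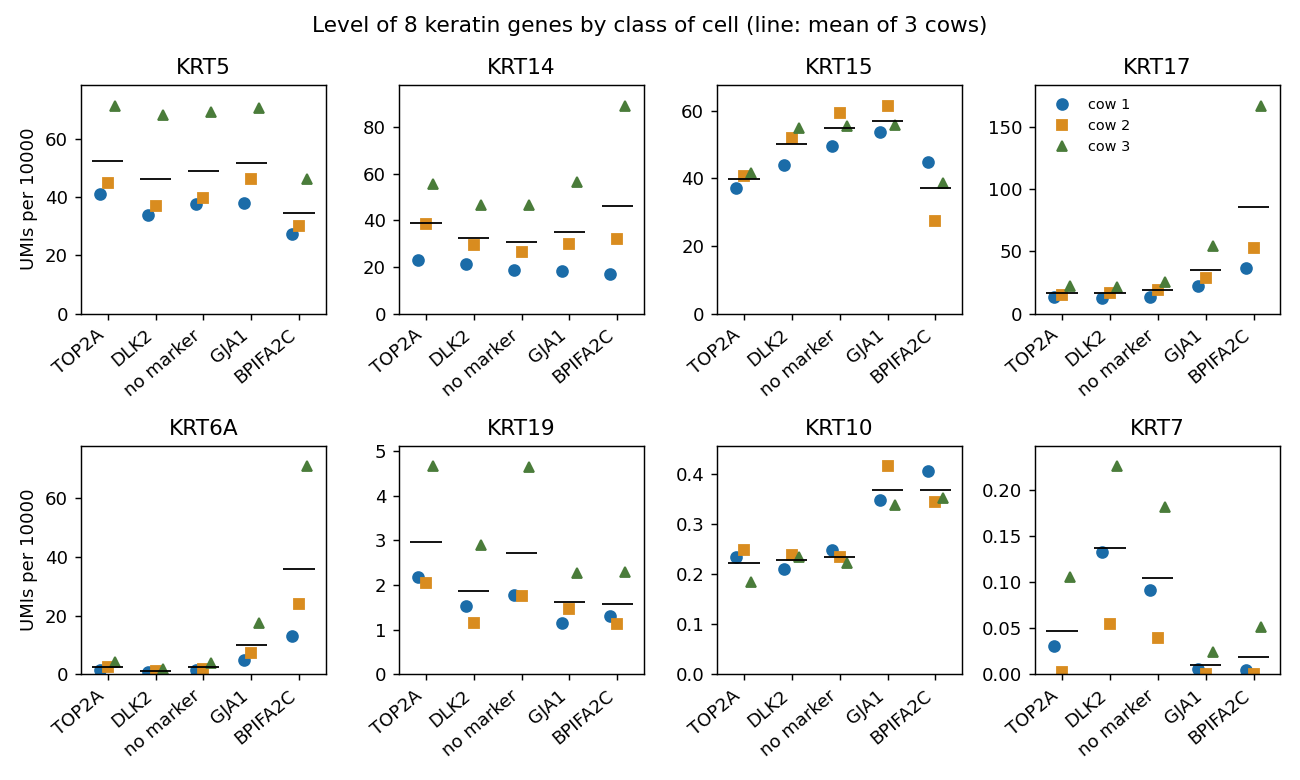
Each panel gives the level of 1 member in UMIs per 10000 (linear axis from 0) by class of cell, with a symbol for each cow and a line at the mean of 3 cows. KRT6A and KRT17 rise in GJA1 and BPIFA2C cells in every cow, KRT10 lies higher in both, and KRT7 is close to 0 there.

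In level, KRT5 was slightly higher in GJA1 than in DLK2 cells and lowest in BPIFA2C cells. As a share of keratin UMIs it was lower in GJA1 than in DLK2 cells in 3 of 3 cows. That share was 27.5%, 26.4% and 27.5% in GJA1 cells against 29.8%, 26.8% and 34.8% in DLK2 cells. The KRT5 level was 33.9, 37.0 and 68.2 UMIs per 10000 in the DLK2 cells of the 3 cows, 38.2, 46.3 and 70.7 in GJA1 cells, 41.2, 45.1 and 71.6 in TOP2A cells and 27.6, 30.1 and 46.3 in BPIFA2C cells. All classes overlapped, since cow 3 was far above the other two in each class, but in every cow BPIFA2C cells were the lowest. GJA1 cells exceeded DLK2 cells by 0.33 ± 0.07 on the log2 scale (adjusted p = 8.9e-04, edgeR), a call lost with library sizes without TMM factors (0.18) and without the cow block (0.30), and BPIFA2C cells lay below GJA1 cells at -0.56 ± 0.07 (adjusted p = 8.5e-05). The difference between BPIFA2C and DLK2 cells was -0.23 ± 0.07 (adjusted p = 0.014), which was short of the fold required for a call. This decrease was called in 6 of 16 alternatives, with -0.39 without TMM factors, -0.28 without cow 1 and -0.56 with the BPIFA2C threshold at 20 UMIs per 10000. In TOP2A cells KRT5 was not called against DLK2 cells (0.15 ± 0.07; called at 0.26 without cow 3) or GJA1 cells (-0.18 ± 0.07). KRT6A UMIs per KRT5 UMI went from 0.0226, 0.0307 and 0.0257 in the DLK2 cells of cows 1, 2 and 3 to 0.477, 0.792 and 1.53 in their BPIFA2C cells.

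KRT14, the usual type I partner of KRT5, was called in 1 of the 5 comparisons. It was 21.2, 29.5 and 46.4 UMIs per 10000 in DLK2 cells, 18.4, 29.8 and 56.5 in GJA1 cells, 22.8, 38.4 and 55.5 in TOP2A cells and 16.8, 31.9 and 89.3 in BPIFA2C cells. The cows diverged in BPIFA2C cells: relative to DLK2 cells, the KRT14 level was lower in cow 1 and higher in cows 2 and 3. As a share of keratin UMIs, KRT14 was lower in BPIFA2C than in DLK2 cells in 3 of 3 cows. That share was 11.9%, 19.1% and 21.5% in BPIFA2C cells against 18.6%, 21.4% and 23.7% in DLK2 cells. In level, the BPIFA2C difference over DLK2 cells was 0.44 ± 0.17 (adjusted p = 0.044, edgeR), but it was called in only 6 of 16 alternatives. It was 0.03 without cow 3 and 0.53 without cow 2, called in neither case, 0.72 without cow 1 (adjusted p = 0.012, edgeR), and 0.08 without cells of under 1% mitochondrial UMIs. In the other 4 comparisons KRT14 was not called, with log2 values from 0.02 to 0.27. KRT5 UMIs per KRT14 UMI were 1.64, 0.943 and 0.519 in the BPIFA2C cells of cows 1, 2 and 3 and 1.60, 1.25 and 1.47 in DLK2 cells.

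KRT15 was lower in TOP2A than in GJA1 cells, and lower in BPIFA2C than in GJA1 cells by a call that depended on the settings. In the 3 cows it stood at 43.9, 52.0 and 55.0 UMIs per 10000 in DLK2 cells, 53.6, 61.5 and 55.8 in GJA1 cells, 37.0, 40.7 and 41.5 in TOP2A cells and 44.9, 27.5 and 38.7 in BPIFA2C cells. TOP2A cells did not overlap with DLK2 or GJA1 cells. Against DLK2 cells, TOP2A cells were lower at -0.40 ± 0.14 on the log2 scale (adjusted p = 0.027, edgeR), a difference called in 12 of 16 alternatives. The call was lost without cow 3 (-0.33, adjusted p = 0.14, edgeR), with library sizes without keratin and mitochondrial UMIs (-0.26, adjusted p = 0.11), with at least 1 marker UMI (-0.29, adjusted p = 0.11) and without the cow block (-0.41, adjusted p = 0.28). Against GJA1 cells the values were -0.73 ± 0.14 in TOP2A cells (adjusted p = 4.4e-04) and -0.60 ± 0.14 in BPIFA2C cells (adjusted p = 0.029). The BPIFA2C difference was called in 9 of 16 alternatives. The call was lost without cow 2 (-0.38, adjusted p = 0.25, edgeR), without cow 3 (-0.66, adjusted p = 0.064) and without the cow block (-0.63, adjusted p = 0.59). It was also lost with the BPIFA2C threshold at 5 UMIs per 10000 (-0.41, adjusted p = 0.067) and with markers called after thinning (-0.40, adjusted p = 0.11). Leaving out cells of under 1% mitochondrial UMIs (-0.53, adjusted p = 0.10) lost it too. So did leaving out cells of several markers from the other classes, with all BPIFA2C cells kept (-0.55, adjusted p = 0.056). In GJA1 cells KRT15 was 0.33 ± 0.14 above DLK2 cells, which was not called (adjusted p = 0.066, edgeR). BPIFA2C cells stood at -0.28 ± 0.14 against DLK2 cells, not called (adjusted p = 0.14). That value ran from -0.72 to -0.064 over the 16 alternatives and was called in 4 of them, among them without cow 1 (-0.54). The KRT15 share of keratin UMIs in BPIFA2C cells was 31.8%, 16.4% and 9.32% in cows 1, 2 and 3, the widest range of the 9 named members in that class.

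KRT19 was the member called higher in TOP2A cells than in both DLK2 and GJA1 cells. It was 2.18, 2.05 and 4.66 UMIs per 10000 in TOP2A cells, 1.53, 1.15 and 2.90 in DLK2 cells, 1.14, 1.45 and 2.26 in GJA1 cells and 1.32, 1.12 and 2.29 in BPIFA2C cells. TOP2A cells were highest of these classes in every cow, although the ranges overlapped. Cells with none of the 4 genes at threshold had 1.78, 1.75 and 4.64, nearly the TOP2A level in cow 3, and no test compared them. The log2 difference was 0.61 ± 0.12 over DLK2 cells (adjusted p = 3.9e-04, edgeR) and 0.60 ± 0.12 over GJA1 cells (adjusted p = 6.4e-04). GJA1 and BPIFA2C cells differed from DLK2 cells by 0.01 ± 0.12 and -0.04 ± 0.13, neither of which was called (adjusted p = 0.96 and 0.85).

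KRT10 was scarce yet its change in level was regular. It was 0.211, 0.239 and 0.235 UMIs per 10000 in DLK2 cells, 0.235, 0.247 and 0.185 in TOP2A cells, 0.349, 0.415 and 0.338 in GJA1 cells and 0.407, 0.345 and 0.352 in BPIFA2C cells. Every GJA1 and BPIFA2C value lay above every DLK2 and TOP2A value. The log2 fold change over DLK2 cells was 0.83 ± 0.11 in GJA1 cells (adjusted p = 7.4e-06, edgeR) and 0.86 ± 0.15 in BPIFA2C cells (adjusted p = 1.9e-04). TOP2A cells lay below GJA1 cells at -0.99 ± 0.12 (adjusted p = 3.2e-06), while BPIFA2C and GJA1 cells differed by 0.03 ± 0.15, which was not called. KRT10 took only 0.159% of the keratin UMIs in DLK2 cells, 0.206% in GJA1 cells and 0.193% in BPIFA2C cells on average. It therefore had little weight in the composition. Relative to DLK2 cells, the KRT10 share in BPIFA2C cells was higher in cows 1 and 2 and lower in cow 3 (0.0848% against 0.120%).

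KRT7 went the other way. In DLK2 cells it had 86, 128 and 162 UMIs in cows 1, 2 and 3, which was 0.132, 0.0541 and 0.225 per 10000. In GJA1 cells it had 3, 0 and 11 UMIs and in BPIFA2C cells 1, 0 and 5. The 0 UMIs of cow 2 allow a level of up to 0.00443 per 10000 in GJA1 cells and 0.0272 in BPIFA2C cells, counting error only. The log2 fold change against DLK2 cells was -3.80 ± 0.38 in GJA1 cells (adjusted p = 1.3e-07, edgeR), -2.98 ± 0.57 in BPIFA2C cells (adjusted p = 3.5e-04) and -1.51 ± 0.23 in TOP2A cells (adjusted p = 3.0e-05). Cow 3 weighed on these sizes: without it they were -5.01, -4.79 and -2.49, all called, and the BPIFA2C value was -2.34 without cow 1. With so few UMIs the fitted sizes are uncertain. TOP2A cells lay above GJA1 cells by 2.29 ± 0.46 (adjusted p = 5.7e-04), with 11, 1 and 193 UMIs in the 3 cows. KRT7 UMIs were spread thinly: of the 1861 cells with a KRT7 UMI, 10, 6 and 67 cells in cows 1, 2 and 3 had at least 3, and none of these was a GJA1 or BPIFA2C cell. The highest count in 1 cell was 6.

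The balance of the 2 types was taken over the named members only, which leaves out the type II gene KRT6B. Type II genes held 30.6%, 27.7% and 35.9% of the keratin UMIs in the DLK2 cells of cows 1, 2 and 3, 31.0%, 30.6% and 34.3% in GJA1 cells, 28.9%, 32.2% and 28.3% in BPIFA2C cells and 36.2%, 32.9% and 37.9% in TOP2A cells. TOP2A cells were above DLK2 cells in 3 of 3 cows, by 4.27 ± 1.95 percentage points, and above GJA1 cells in 3 of 3 cows, by 3.67 ± 1.40 points. Both had p = 0.25 in an exact two-sided sign-flip test, which is the smallest p that 3 cows allow. The difference between GJA1 and DLK2 cells was 0.606 ± 2.22 points (higher in 2 of 3 cows, exact p = 0.75), and that between BPIFA2C and DLK2 cells -1.61 ± 6.04 points (higher in 1 of 3 cows, exact p = 0.75). Adjusted over the 5 comparisons of type II shares, the p-values were 0.625 for both TOP2A comparisons and 0.75 for the others. KRT6B, left out of these shares, had 21, 347 and 3505 UMIs in the BPIFA2C cells of cows 1, 2 and 3. KRT6A had 2617, 2630 and 6854 UMIs there. In DLK2 cells KRT6B had 3, 76 and 25 UMIs. The BPIFA2C difference was not tested with KRT6B counted, so its direction holds for the named members only.

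The composition was also followed along the level of GJA1 in the cells outside the TOP2A and BPIFA2C classes, as a description with no test. In those with no GJA1 UMI, KRT6A held 0.996%, 1.12% and 1.60% of the keratin UMIs in cows 1, 2 and 3. With 2 to 3 GJA1 UMIs it held 2.73%, 3.29% and 5.90%, and with 8 or more 4.00%, 5.15% and 7.54%. KRT17 went from 10.7%, 12.4% and 11.8% at 0 UMIs to 16.2%, 18.2% and 22.8% at 4 to 7 UMIs and 17.3%, 15.9% and 20.3% at 8 or more, while KRT5 went from 30.6%, 26.8% and 34.1% to 26.4%, 25.2% and 26.2% at 8 or more. KRT15 went from 39.9%, 39.5% and 27.4% at 0 to 37.6%, 33.3% and 19.7% at 4 to 7 UMIs and 39.96%, 35.7% and 24.9% at 8 or more, so that KRT17 in cows 2 and 3 and KRT15 in every cow turned back in the last bin. The KRT6A share was higher in each bin up to 4 to 7 GJA1 UMIs in every cow, and beyond it did not go on in cow 3. Cells with more GJA1 UMIs were also deeper, with medians of 9091.5, 11424.5 and 9151 UMIs at 0 and 19232, 19461 and 15815 at 8 or more. The part of depth in these bins was not tested, as the bins were not thinned. In another setting the class genes were called after thinning cells to 3000 UMIs, with shallower cells left out. There KRT6A was called in GJA1 against DLK2 cells, on unthinned counts of the 2 classes.

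At high BPIFA2C levels, KRT5 and KRT15 held small shares of the keratin UMIs. At 10 to 20 BPIFA2C UMIs per 10000, KRT5 held 24.6%, 20.6% and 18.5% of the keratin UMIs in cows 1, 2 and 3 and KRT6A 4.85%, 12.5% and 13.0%. At 100 or more, where only cows 1 (18 cells) and 3 (15 cells) had at least 10 cells, KRT5 held 0.546% and 1.42% and KRT15 0.692% and 0.924%. In these cells KRT17 held 65.4% and 50.0% and KRT6A 27.2% and 21.1%, with KRT14 at 6.01% and 26.4%. Keratin UMIs reached 586.2 and 837.5 of every 10000 there. The shares moved in part with this total. As levels, KRT5 stood at 3.20 and 11.9 UMIs per 10000 and KRT15 at 4.06 and 7.74, against 33.9 and 68.2 for KRT5 and 43.9 and 55.0 for KRT15 in the DLK2 cells of the same cows. KRT14 differed between the 2 cows, at 35.2 and 221.5. These sets are small and no test was made on them.

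**Figure D4:**
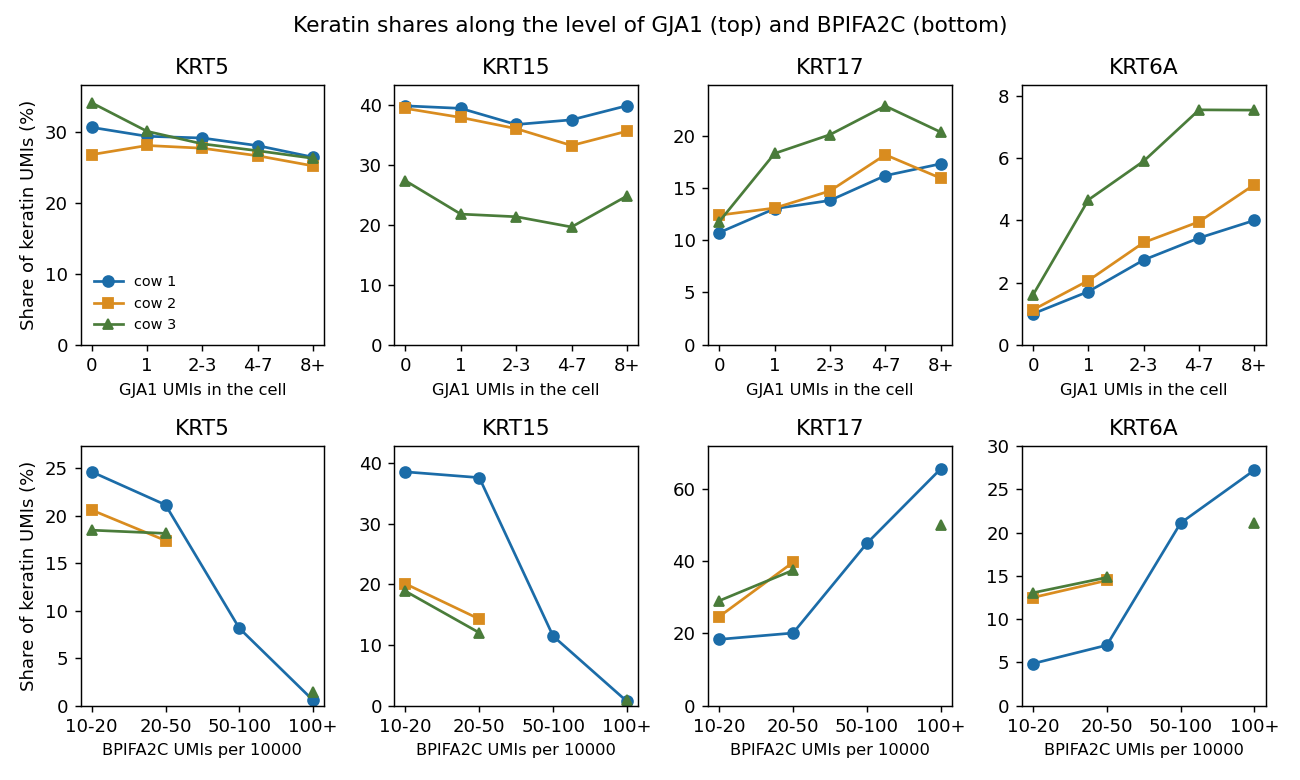
Lines give the share (%) of 4 members in keratin UMIs for each cow along bins of GJA1 UMIs per cell (top) and of BPIFA2C UMIs per 10000 (bottom); bins of under 10 cells are not drawn. In cow 1 the KRT5 share falls from 24.6% at 10 to 20 BPIFA2C UMIs per 10000 to 0.546% at 100 or more.

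As a class, BPIFA2C cells had more mitochondrial RNA than DLK2 cells, with median shares of 22.9%, 15.0% and 13.7% of the UMIs in cows 1, 2 and 3 against 10.8%, 9.63% and 11.1%. A subset of them was low in it: 29, 5 and 21 BPIFA2C cells in cows 1, 2 and 3 had under 1% mitochondrial UMIs, and in cows 1 and 3 these had median depths of 3073 and 4051 UMIs against 17385 and 15215 in the other BPIFA2C cells. In them KRT17 held 54.5% and 47.5% of keratin UMIs and KRT5 5.67% and 1.02%, against 21.6% and 36.2% for KRT17 and 21.8% and 16.9% for KRT5 in the other BPIFA2C cells of the same cows. KRT6A was also higher in the other BPIFA2C cells than in DLK2 cells, with 7.32%, 14.1% and 15.0% in cows 1, 2 and 3 against 0.673%, 0.824% and 0.896% in DLK2 cells. Of the late differentiation genes, none passed the filter for the test. They had 10, 0 and 37 UMIs in the BPIFA2C cells of cows 1, 2 and 3, up to 0.383 per 10000, against at most 0.0066 in every other class, with LOR and CNFN at 0 in all BPIFA2C cells, so the UMIs came from IVL and SBSN in 2 cows. Immediate-early genes also moved with the classes: 8 of them summed to 17.2 to 88.6 UMIs per 10000 in DLK2 cells, 9.64 to 42.5 in GJA1 cells, 10.0 to 31.8 in BPIFA2C cells and 8.74 to 45.4 in TOP2A cells. Against DLK2 cells 6, 6 and 8 of the 8 were called lower in these 3 classes, beside 23.2%, 18.4% and 21.1% of all genes. The 13 mitochondrial genes summed to 1031 to 1304 UMIs per 10000 in DLK2 cells, 1504 to 2392 in GJA1 cells and 1414 to 2410 in BPIFA2C cells, and against DLK2 cells 12 of the 13 were called higher and 1 lower in GJA1 cells and 10 higher and 1 lower in BPIFA2C cells. The shares of all genes called in these 2 comparisons were 22.3% higher and 23.2% lower, and 18.7% and 18.4%. In TOP2A cells the 13 summed to 1280 to 2261, with 6 called higher and 1 lower than in DLK2 cells (21.6% and 21.1% of all genes). Against GJA1 cells 9 of the 13 were called lower in TOP2A cells (18.1% of all genes). The 6 cycling genes summed to 1.21 to 2.47 UMIs per 10000 in BPIFA2C cells against 0.198 to 0.628 in DLK2 cells. All 6 were called higher in BPIFA2C than in DLK2 cells (18.7% of all genes were) and 4 of the 6 than in GJA1 cells (1.51% of all genes). In GJA1 against DLK2 cells 4 of the 6 were called higher (22.3% of all genes), with a median of 1.21. By the order of the classes, 22 BPIFA2C cells at the TOP2A threshold stayed in that class, whereas such cells were taken out of the GJA1 and DLK2 classes. The cycling comparisons of BPIFA2C cells were therefore uneven, and the part of their difference due to this order was not tested. The 6 basal genes (integrins, TP63 and genes of attachment to the basement membrane) summed to 4.19 to 8.37 in BPIFA2C cells and 7.19 to 10.1 in GJA1 cells against 11.0 to 15.1 in DLK2 cells, with 4 of the 6 called lower in BPIFA2C cells (18.4% of all genes were) and 4 in TOP2A cells (21.1%). In GJA1 cells 2 were lower and 1 higher, near the shares of all genes.

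Markers of other cell types with enough UMIs for the test were few. VWF, the von Willebrand factor gene, held 563 of the 580 endothelial UMIs. It was higher than in DLK2 cells by 1.02 ± 0.28 in GJA1 cells (adjusted p = 0.0057, edgeR) and 1.29 ± 0.41 in BPIFA2C cells (adjusted p = 0.019) and lower in TOP2A cells (-0.84 ± 0.34, adjusted p = 0.049). The 4 endothelial genes summed to 0.0131 to 0.0323 UMIs per 10000 in DLK2 cells, 0.0340 to 0.0505 in GJA1 cells and 0.0414 to 0.0635 in BPIFA2C cells. Of the immune genes, CD74 was lower in GJA1 than in DLK2 cells (-1.33 ± 0.38, adjusted p = 0.0074, edgeR) and CD68 was called in no comparison. The part of all these gene lists in the keratin results was not tested.

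Within TOP2A cells, those that also reached the GJA1 threshold (38, 32 and 31 cells in cows 1, 2 and 3) had more KRT6A than those that did not. KRT6A held 2.10%, 3.47% and 4.18% of their keratin UMIs against 1.08%, 1.13% and 1.99% in the other TOP2A cells. The values were higher in 3 of 3 cows and were not tested. KRT17 stood at 13.3%, 12.3% and 13.6% against 10.6%, 10.0% and 11.1%, also higher in each cow.

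Of the 32 other named keratins, 6 had at least 500 UMIs. KRT6B (ENSBTAG00000038033), the close paralog of KRT6A, reached 0.105, 3.15 and 36.3 UMIs per 10000 in the BPIFA2C cells of cows 1, 2 and 3, and 0.00526, 0.459 and 1.61 in GJA1 cells. In DLK2 cells it was 0.00461, 0.0321 and 0.0348. The cows differed widely: cow 1 had 3 KRT6B UMIs in its GJA1 cells and 3 in its DLK2 cells, at nearly the same level, so the GJA1 difference rests on cows 2 and 3. The log2 fold change over DLK2 cells was 8.40 ± 0.60 in BPIFA2C cells (adjusted p = 2.9e-09, edgeR) and 4.50 ± 0.57 in GJA1 cells (adjusted p = 3.2e-06). Reads of near-identical keratins may be split between genes or lost in counting, so that KRT6A and KRT6B, and likewise KRT14, KRT17 and KRT42, are uncertain as single genes. KRT42 itself, a type I gene with 37211 UMIs, was called in none of the 5 comparisons, with log2 values from -0.35 to 0.22, and KRT75 with 544 UMIs was called in none either.

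KRT78, a type II keratin of upper epithelial layers, was higher in GJA1 and BPIFA2C than in DLK2 cells, as KRT6A was, but not in TOP2A cells. It was 0.0938, 0.0684 and 0.117 UMIs per 10000 in DLK2 cells, 0.256, 0.325 and 0.292 in GJA1 cells and 0.527, 0.454 and 0.869 in BPIFA2C cells, with no overlap between the 3 classes. Its log2 fold changes over DLK2 cells were 1.89 ± 0.17 and 2.92 ± 0.20 (adjusted p = 3.1e-08 and 1.2e-09, edgeR), and TOP2A cells stood at -0.19 ± 0.20, not called (adjusted p = 0.47). The simple-epithelium pair KRT8 and KRT18 was lower in both classes, as KRT7 was: KRT18 fell by 2.49 ± 0.31 in GJA1 cells and 3.03 ± 0.62 in BPIFA2C cells, and KRT8 fell by 0.77 ± 0.19 and 2.39 ± 0.39. All 4 were called. KRT18 had 3, 1 and 0 UMIs in the BPIFA2C cells of the 3 cows and 6, 17 and 3 in GJA1 cells. KRT8 had 2, 3 and 14 UMIs in BPIFA2C cells and 41, 63 and 143 in GJA1 cells. The fitted sizes of KRT18 in both classes and of KRT8 in BPIFA2C cells are therefore uncertain. In TOP2A cells KRT18 was also called lower, at -1.43 ± 0.25 (adjusted p = 1.1e-04, edgeR), and KRT8 was not called (-0.08 ± 0.18). KRT16, the usual partner of KRT6A in human skin, had 12 UMIs over all cells and was not tested.

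A list of 16 keratin partners (desmosome, plakin and filament-binding genes) had 14 tested members, of which 10 were higher and 2 lower in GJA1 than in DLK2 cells, beside 22.3% and 23.2% of all genes. Their median log2 value was 0.72, against -0.03 over all genes. PKP1, a plakophilin of the desmosome plaque, was higher by 1.98 ± 0.17 and SFN, the 14-3-3 protein of keratinocytes, by 1.89 ± 0.22, whereas DSG2, a desmoglein, was lower at -1.33 ± 0.19. In BPIFA2C against DLK2 cells the counts were also 10 and 2, beside 18.7% and 18.4% of all genes, with a median of 0.84 against -0.06 over all genes. There PKP1 stood at 2.95 ± 0.20, SFN at 2.79 ± 0.23 and DSG2 at -2.40 ± 0.36. Against GJA1 cells, 5 partners were higher in BPIFA2C cells (1.51% of all genes were) and none lower (0.417% of all genes), with a median of 0.19 against -0.04 over all genes. The values were led by the desmocollin DSC2 at 1.13 ± 0.18, PKP1 at 0.97 ± 0.18 and SFN at 0.90 ± 0.22.

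In TOP2A against DLK2 cells, 6 partners were higher and 1 lower, beside 21.6% and 21.1% of all genes, with a median of 0.10 against -0.0025 over all genes. PKP1 stood at 0.86 ± 0.19, SFN at 0.71 ± 0.22 and DSC2 at 0.61 ± 0.16. Against GJA1 cells, 2 were higher and 8 lower, beside 18.8% and 18.1% of all genes, with a median of -0.58 against 0.01 over all genes. SFN stood at -1.18 ± 0.22, PKP1 at -1.12 ± 0.17 and DSG2 at 1.14 ± 0.21.

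Of 17 transcription factors of keratinocytes, 14 were tested. Most of those named below were scarce: over all cells ZNF750 had 1615 UMIs, OVOL1 1156, GRHL1 550 and GRHL3 172, whereas PITX1 had 52409. In GJA1 against DLK2 cells 6 were higher and 4 lower, beside 22.3% and 23.2% of all genes, with a median of 0.09 against -0.03 over all genes, so the list had no single direction. ZNF750, a regulator of late epidermal differentiation, was higher by 5.39 ± 0.27 on the log2 scale, OVOL1 by 2.90 ± 0.22 and GRHL3, a grainyhead-like factor of the skin barrier, by 2.74 ± 0.44. In BPIFA2C against DLK2 cells the counts were again 6 and 4, beside 18.7% and 18.4% of all genes, with a median of 0.38 against -0.06. They were led by ZNF750 at 5.79 ± 0.34, GRHL1 at 4.13 ± 0.43 and GRHL3 at 3.77 ± 0.57. In TOP2A against DLK2 cells 3 were higher and 3 lower, counts of 14 near the 21.6% and 21.1% of all genes, with ZNF750 at 3.76 ± 0.33, OVOL1 at 1.30 ± 0.27 and PITX1 at 0.91 ± 0.10. Between BPIFA2C and GJA1 cells only GRHL1 of this list was called (1.93% of all genes were), at 1.51 ± 0.36. Between TOP2A and GJA1 cells 1 factor was higher and 6 were lower, beside 18.8% and 18.1% of all genes, with GRHL1 at -2.40 ± 0.43, GRHL3 at -1.86 ± 0.46 and ZNF750 at -1.63 ± 0.20.

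The genes whose levels ran most closely with each member were found over the 15 sums after centring on the cow. The sums share libraries and depth, so these correlations are descriptions. KRT6A was closest to HES2, CSTB and LY6G6E (Pearson r = 0.99 each), and KRT17 to ATOX1 (0.99), RAB25 (0.99) and S100A9 (0.98). KRT10 was closest to SMIM26 (0.98), the unnamed gene ENSBTAG00000038540 (0.98) and NT5E (0.97), and KRT7 to GLIPR1 (0.98), RWDD3 (0.97) and SPRY2 (0.97). KRT5 ran with PHKA1 (0.94), PANX1 (0.93) and SFRP1 (0.92), KRT14 with RPS4Y1 as the table names it (0.95), PSME3 (0.94) and SEC11C (0.94), and KRT15 with ENSBTAG00000053707 (0.93), TCEA3 (0.91) and GPD2 (0.90). KRT19 had the weakest match, with GMNN (0.83), INTS7 (0.82) and CDK2 (0.82), of which GMNN and CDK2 act in the cell cycle.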

How the data were processed

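Libraries were prepared with a 10x 3' kit, and the authors counted reads with Cell Ranger 3.1.0 on the ARS-UCD1.2 genome. The authors then kept cells with 500 to 4000 genes, at most 50000 UMIs and at most 40% mitochondrial UMIs, identified doublets with DoubletFinder and kept epithelial clusters; no doublet caller was run here. The deposited UMI counts per gene and cell were used. The deposited natural log table of the same cells gave the gene names: all 19533 of its rows matched ln(1 + 10000 × count / cell total) of the counts. The barcode suffix gave the cow.

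Members, gene lists, classes and tests were chosen with earlier results of these data known. Classes were set in the order BPIFA2C, TOP2A, GJA1, DLK2. Counts were summed per cow and class and tested with edgeR 4.0.16 (TMM, filterByExpr, cow as block, R 4.3.3), with DESeq2 1.42.0 as an alternative. The sums are paired because every class came from the same 3 cows: deviations of same-cow sums correlated at 0.556 on average (lowest 0.267). The block takes out differences in level between the libraries. The p-values therefore rest on how class differences varied across the cows, in a fit shared by all classes. With 1 library per cow, variation between cows and between libraries cannot be told apart in them. Shares were computed in Python 3.11.15, and thinning drew 3000 UMIs per cell. Per cow 38912809, 94856658 and 104189434 UMIs were counted; counting intervals cover counting error only. The test was also run on 1 set of simulated counts, whose error rates are not reported here. Named were all members, other keratins of at least 500 UMIs, the 3 largest called genes of each list and the 3 genes most like each member; UMI shares are over the 9 named members. No sequences or coordinates are given, since no genome or sequence table of the files' build was used here.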

Additional observations from a re-analysis of the deposited data

How the results depend on the processing

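Each cow was left out in turn, and marker thresholds, the library size, the low-count filter, the test and the handling of shallow or low-mitochondrial cells were changed one at a time. Leaving out cells under 5000 UMIs was chosen after seeing the data. Of the member fold changes under these settings, 551 kept direction and stayed called or stayed not called. Values called neither before nor after are among them, so this is not a count of calls kept. A further 35 lost and 15 gained a call, and 39 turned direction. Of the shares, 575 moved by no more than 1 SD between cows and 10 by more. Without 1 of the 3 cows a mean cannot move by as much as 1 SD, so those settings could add to the first count only. KRT6A, KRT17 and KRT10 in GJA1 and BPIFA2C against DLK2 cells kept direction and call under all 16 settings, except KRT17 in GJA1 cells without the cow block (edgeR adjusted p = 0.13).

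Without the replicate block, which discards the pairing by cow, members called fell to 3 (GJA1 against DLK2), 3 (BPIFA2C against DLK2), 0 (TOP2A against DLK2), 0 (BPIFA2C against GJA1) and 2 (TOP2A against GJA1), and genes called to 1600, 1841, 1247, 45 and 1108. Between BPIFA2C and GJA1 cells, genes called were 409 with no filter on low counts and 486 with marker thresholds of at least 1 UMI, and without 1 cow ranged from 124 to 169; between TOP2A and GJA1 cells they ranged from 2520 to 3048. The type II difference, over the named members, reached -0.54 to 1.68 for GJA1 and -4.65 to 1.39 for BPIFA2C against DLK2 cells without 1 cow. The cause was not tested.

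Without TMM factors, the median over all genes moved from -0.03 to -0.18 in GJA1 and from -0.06 to -0.22 in BPIFA2C against DLK2 cells, and from 0.01 to 0.23 in TOP2A against GJA1 cells. The share of called genes that were higher then moved from 49.0% to 34.4%, from 50.4% to 35.7% and from 50.9% to 75.6%. With library sizes without keratin and mitochondrial UMIs it was 70.8% in TOP2A against GJA1 cells. In TOP2A against DLK2 cells it was 50.7% as reported, 59.4% without TMM factors and 67.5% with those library sizes. Of the members, 3 were called higher and 1 lower in GJA1 against DLK2 cells without TMM factors. In BPIFA2C against DLK2 cells 3 were then higher and 3 lower, where 4 and 1 were reported. The BPIFA2C threshold at 20 UMIs per 10000 also gave 3 and 3 there.

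The values that turned direction, on the log2 scale, were of members called neither before nor after. KRT19 in GJA1 against DLK2 cells, at 0.0098, was -0.022 (DESeq2), -0.015 (no low-count filter), -0.14 (no TMM), -0.011 (reduced library size), -0.039 (no block), -0.065 (1 marker UMI), -0.050 (3 marker UMIs), -0.065 (BPIFA2C from 20), -0.16 (thinned markers), -0.0021 (shallow cells left out) and -0.22 to 0.13 (without 1 cow). KRT19 in BPIFA2C against DLK2 cells, at -0.038, was 0.014 (3 marker UMIs), 0.049 (low-mitochondrial cells left out) and -0.10 to 0.032 (without 1 cow). KRT10 in TOP2A against DLK2 cells, at -0.16, was -0.27 to 0.050 (without 1 cow). KRT17 in TOP2A against DLK2 cells, at -0.043, was 0.014 (no TMM), 0.099 (reduced library size), 0.14 (1 marker UMI) and -0.13 to 0.039 (without 1 cow). KRT7 in BPIFA2C against GJA1 cells, at 0.82, was -0.34 (1 marker UMI), -0.19 (BPIFA2C from 5) and -0.19 (thinned markers). KRT10 in BPIFA2C against GJA1 cells, at 0.03, was -0.00096 (no block), -0.042 (BPIFA2C from 20), -0.0083 (shallow cells left out) and -0.11 to 0.16 (without 1 cow). KRT19 in BPIFA2C against GJA1 cells, at -0.048, was 0.064 (3 marker UMIs), 0.087 (thinned markers), 0.036 (low-mitochondrial cells left out) and -0.17 to 0.12 (without 1 cow). KRT14 in BPIFA2C against GJA1 cells, at 0.27, was -0.086 (low-mitochondrial cells left out) and -0.026 to 0.45 (without 1 cow). KRT5 in TOP2A against GJA1 cells, at -0.18, was 0.028 (no TMM). KRT14 in TOP2A against GJA1 cells, at 0.022, was -0.052 (no block), -0.0019 (cells of several markers left out), -0.00038 (thinned markers), -0.0038 (low-mitochondrial cells left out) and -0.088 to 0.16 (without 1 cow).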

Other observations

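In the 14438 cells with none of the 4 class genes at threshold, the most abundant keratin differed between cows. KRT15, the basal type I keratin, led in 67.2%, 69.5% and 27.8% of the cells of cows 1, 2 and 3 that had at least 20 keratin UMIs, and KRT5 led in 23.4%, 11.8% and 59.1%. KRT14 led in 3.67%, 12.2% and 8.68%, and KRT17 in 3.21%, 4.69% and 1.63%. KRT6A led in 0%, 0% and 0.0133% of these cells. Cow 3 was therefore led by KRT5 where the other cows were led by KRT15. Cow and library cannot be told apart here, so no test was made.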
